A study of Mus musculus with 8 samples.

Results

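Foxp3 binding was examined at 9 genes of the TGF-beta receptor and SMAD pathway, namely Tgfb1, Tgfbr1, Tgfbr2, Smad2, Smad3, Smad4, Smad7, Ski and Skil. Each listed binding site was given to the protein-coding RefSeq gene that held its centre, counting 5 kb on either side of the gene body, or otherwise to the nearest gene end within 100 kb, and all sites of the 9 genes were kept whatever their signal. This gave 21 of the 5521 listed sites, at 5 of the 9 genes. The signal came from CUT&Tag, in which a transposase is brought to an antibody on chromatin and inserts sequencing adapters into the DNA around it. Regulatory T (Treg) cells of the strain C57BL6/J were sorted fresh, from spleen and lymph nodes, as CD4+ hCD2+ GFP- cells. The R397W cells had the genotype Foxp3R397W-IRES-hCD2/Foxp3-IRES-GFP and the WT cells Foxp3WT-IRES-hCD2/Foxp3-IRES-GFP. Both genotypes thus carried a GFP-marked Foxp3 allele beside the hCD2-marked one, and the sort kept cells that expressed the hCD2-marked allele alone. No treatment or age was given. Each genotype had 2 libraries made with an in-house rabbit anti-Foxp3 antibody and 2 made with normal rabbit IgG, which measure background. The labels do not say whether libraries numbered 1 and 2 came from separate mice, so p-values here reflect the spread among these samples alone, and that spread may be technical. In the limma fits that include IgG libraries, the spread used is that typical of sites of like mean signal. It is not that of the site's own replicates. The files hold binding signal and no expression, so the Treg label was not checked against marker genes here.

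TGF-beta binds the type II receptor, encoded by Tgfbr2, which recruits and phosphorylates the type I receptor, encoded by Tgfbr1. The active receptor phosphorylates SMAD2 and SMAD3, which join SMAD4 and enter the nucleus to control target genes. SMAD7 blocks this step at the receptor, and SKI and SnoN (encoded by Skil) are co-repressors that bind SMAD complexes. In T cells the pathway restrains activation and helps naive CD4+ cells to take up Foxp3 expression outside the thymus.

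Reads recovered at all listed sites numbered 111274 and 281252 with the Foxp3 antibody in R397W and 279737 and 394196 in WT. The value of replicate 1 precedes that of replicate 2 here and in every pair of values in the text. They numbered 111359 and 258781 in R397W IgG and 297706 and 288223 in WT IgG. Coverage was uneven, with no reads at 0 and 6 of the 21 sites in R397W Foxp3, at 0 and 6 in WT Foxp3, at 1 and 5 in R397W IgG, and at 3 and 11 in WT IgG. Libraries numbered 2 thus missed more of these sites than those numbered 1 in every group. A value of 0 is compatible with up to 3 reads, which equals 1.40 to 7.88 normalised reads at common sites and 1.55 to 6.48 at cTreg-specific sites, depending on the library. These limits cover counting error only. Foxp3 and IgG libraries were scaled together at the listed sites. Foxp3 values above or below IgG are thus relative to the other listed sites.

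The 21 sites were 15 common and 6 cTreg-specific, and none was eTreg-specific (eTreg, effector Treg). The classes are the authors' own and sort Foxp3 sites by whether they were shared or restricted to cTreg or eTreg cells. The shares at these genes were thus 71.4% common, 28.6% cTreg-specific and 0% eTreg-specific, against 69.7%, 13.2% and 17.2% over all 5521 sites. Of the 6 cTreg-specific sites, 5 belonged to Tgfbr2 and 1 to Smad7. By gene, Tgfbr2 had 9 sites, Smad7 6, Ski 3, Skil 2 and Smad3 1. Only 37 of the 2760 genes with a site (1.34%) had 9 or more, and 125 (4.53%) had 6 or more. No site was assigned to Tgfb1, which encodes the ligand, to Tgfbr1, or to Smad2 and Smad4. The listed site nearest to each of these genes lay 67.7 kb from Tgfb1, 48.7 kb from Tgfbr1, 666 kb from Smad2 and 132 kb from Smad4, and each was assigned to another gene. Reads outside the listed sites were not analysed here.

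At Tgfbr2, Smad3 and Ski the sites lay away from the annotated gene starts. For Smad7 and Skil the start was not available, so only distances to a gene end are given. Of the 21, 14 were inside a gene body, 3 within 5 kb of one and 4 farther off (66.7%, 14.3% and 19.0%, against 63.5%, 10.7% and 20.2% of all sites). At Tgfbr2, 6 sites lay in the gene body, between 6094 and 83699 bp downstream of the annotated start, and 3 cTreg-specific sites lay 12258, 13773 and 39136 bp upstream of it. The site in Smad3 was 51357 bp downstream of its start, and those in Ski were 24572, 44037 and 53644 bp downstream. The Smad7 and Skil sites included 1 each at a gene end, with centres 233 bp and 49 bp from it. Each of the 21 sites spanned 400 bp. Coordinates are those of the files, taken as mm10.

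**Figure D1:**
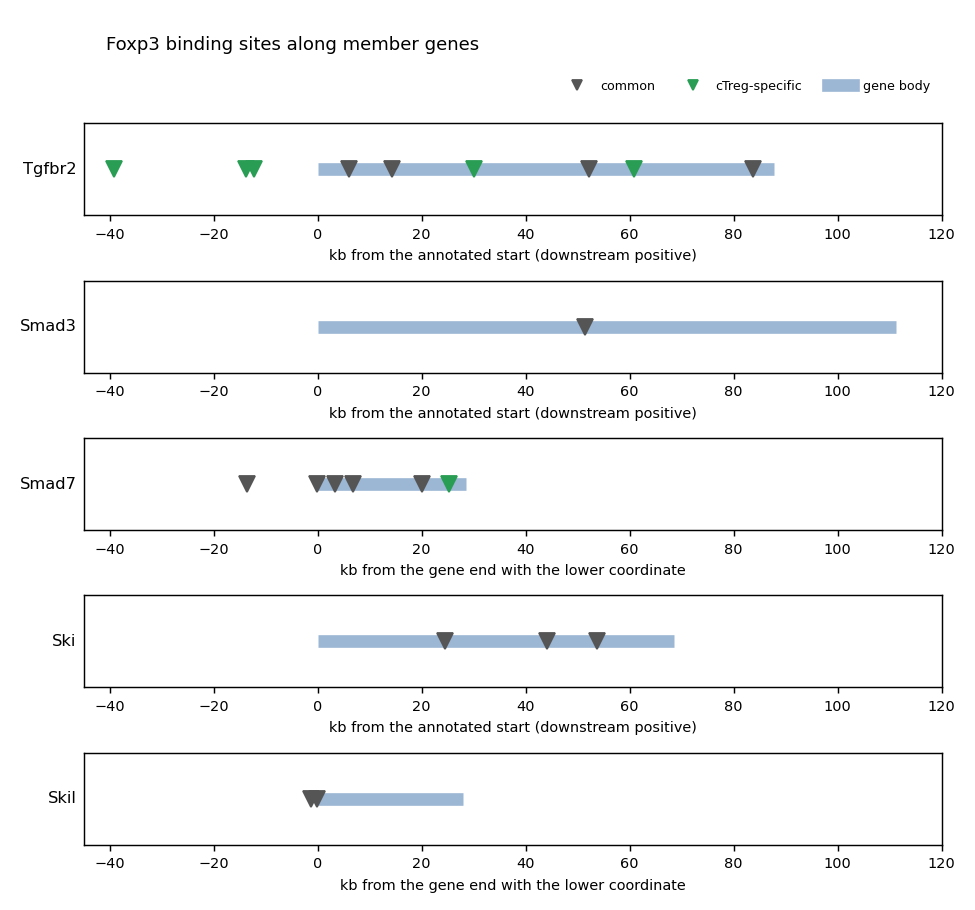
Positions of the 21 sites (triangles, coloured by class) along the 5 genes with a site. The horizontal axis is distance in kb from the annotated start (Tgfbr2, Smad3, Ski) or from the gene end with the lower coordinate (Smad7, Skil), and bars are gene bodies. Tgfbr2 has 5 cTreg-specific sites, 3 of them upstream of the gene, while both Skil sites sit at or beside the gene end.

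The starts of Tgfbr2, Ski and Smad3, from which those distances were counted, are shown by the 250 bases before each, from the RefSeq promoter table (GRCm38.p6). No listed site overlapped any of these windows. Capitals mark the SMAD box CAGAC on either strand, which was searched together with the forkhead letters TGTTTAC and the AP-1 letters TGANTCA, also on both strands.
Tgfbr2 promoter, chr9:116175364-116175613, minus strand: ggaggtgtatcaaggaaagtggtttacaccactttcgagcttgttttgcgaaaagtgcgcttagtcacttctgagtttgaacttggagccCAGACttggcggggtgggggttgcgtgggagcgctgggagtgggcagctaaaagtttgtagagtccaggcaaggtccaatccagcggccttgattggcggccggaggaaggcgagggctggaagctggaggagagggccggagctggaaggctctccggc
Ski promoter, chr4:155222536-155222785, minus strand: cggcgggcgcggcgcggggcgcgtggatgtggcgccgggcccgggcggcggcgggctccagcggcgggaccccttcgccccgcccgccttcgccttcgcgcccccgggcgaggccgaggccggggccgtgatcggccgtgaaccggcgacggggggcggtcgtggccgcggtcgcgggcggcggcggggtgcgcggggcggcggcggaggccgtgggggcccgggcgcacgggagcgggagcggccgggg
Smad3 promoter, chr9:63757995-63758244, minus strand: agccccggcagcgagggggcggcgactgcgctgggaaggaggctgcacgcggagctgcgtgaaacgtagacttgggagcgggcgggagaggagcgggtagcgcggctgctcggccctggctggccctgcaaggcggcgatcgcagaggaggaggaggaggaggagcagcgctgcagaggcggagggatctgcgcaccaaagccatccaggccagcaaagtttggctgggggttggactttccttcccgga
The Tgfbr2 window held 1 SMAD box and those of Ski and Smad3 none, and no window held the forkhead or AP-1 letters. Among all 32851 promoter windows of this length, 42.2% held a SMAD box, 3.17% the forkhead letters and 6.75% the AP-1 letters. The motifs at the binding sites themselves were not analysed here.

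Tgfbr2, the type II receptor gene, had the lowest mean of reads per site of the 5 genes. The mean signal over the 8 libraries placed its 9 sites between the 16.9th and the 79.0th percentile of their class. That range overlapped with Smad7 and Ski, which had sites at the 66.6th and the 70.2nd percentile. The highest of the 9 Tgfbr2 sites was site 4 (sites are numbered along the chromosome). It was a cTreg-specific site 29974 bp downstream of the start (chromosome 9, 116145189 to 116145589). Its normalised read count was 32.0 and 117 in R397W Foxp3 and 27.8 and 0 in WT Foxp3, against 82.1 and 63.2 in R397W IgG and 0 and 37.9 in WT IgG. Both R397W Foxp3 values lay above both WT Foxp3 values, and the same order held between the IgG libraries. The fitted log2 fold change of the Foxp3 libraries, R397W minus WT on log2(normalised read count + 1), was 3.54 (SE 2.53, limma, adjusted p = 1). It was 1.12 without WT Foxp3 replicate 2, which had no reads here, and 5.96 without WT Foxp3 replicate 1. The difference in IgG was of like size, at 3.55 (SE 2.78, limma, adjusted p = 1), and lay between 0.91 and 6.19 with an IgG library left out.

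Site 2 of Tgfbr2, also cTreg-specific and inside the gene (chromosome 9, 116114317 to 116114717), went the other way. It had 1.69 and 31.2 in R397W Foxp3 and 37.0 and 38.2 in WT Foxp3, with 0 and 79.6 in R397W IgG and 28.3 and 0 in WT IgG. The Foxp3 groups did not overlap. In R397W the IgG values spanned the Foxp3 values, while both WT Foxp3 values lay above both WT IgG values. Here 1.69 stood for 1 read, and the log2 fold change of −2.05 (SE 2.26, limma, adjusted p = 1) became −0.26 without R397W Foxp3 replicate 1 and −3.85 without R397W Foxp3 replicate 2. Signal was patchy across the 3 cTreg-specific sites upstream of Tgfbr2. Each of them had reads in both Foxp3 libraries numbered 1 and none in WT Foxp3 replicate 2, and only site 8 (chromosome 9, 116188936 to 116189336) had reads in R397W Foxp3 replicate 2. At site 8, named after its values were seen, the values were 43.8 and 48.9 in R397W Foxp3 and 105 and 0 in WT Foxp3, against 69.2 and 0 in R397W IgG and 47.2 and 0 in WT IgG.

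Smad3 encodes a SMAD that the receptor activates. Its single site, a common one inside the gene (chromosome 9, 63706437 to 63706837), ranked at the 95.8th percentile of its class. It had 113 and 87.0 in R397W Foxp3 and 181 and 266 in WT Foxp3, so both R397W values lay below both WT values. The means were 99.9 ± 18.3 in R397W and 224 ± 60.5 in WT (SD, n = 2 each), and the log2 fold change was −1.14 (SE 0.58, limma, adjusted p = 1). The IgG libraries covered a similar range, with 158 and 64.9 in R397W and 83.3 and 270.2 in WT. WT IgG replicate 2 thus matched WT Foxp3 replicate 2, and Foxp3 stood above IgG only in R397W replicate 2 (1.34-fold) and WT replicate 1 (2.17-fold).

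Smad7, the inhibitory SMAD and itself a target of the pathway in many cells, had 6 sites on chromosome 18 within and beside a gene of 28.6 kb. The highest was site 5, a common site inside the gene (75387315 to 75387715), with 123 and 195 in R397W Foxp3 and 147 and 68.4 in WT Foxp3. Its IgG values were 140.3 and 71.3 in R397W and 111 and 75.6 in WT, within the range of the Foxp3 libraries. The R397W and WT Foxp3 values overlapped, with a log2 fold change of 0.63 (SE 0.69, limma, adjusted p = 1). It was 0.080 without WT Foxp3 replicate 2, 0.30 without R397W Foxp3 replicate 2 and 1.17 without WT Foxp3 replicate 1.

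Site 4 of Smad7, a common site 6840 bp inside the gene (75374005 to 75374405), had Foxp3 values that did not overlap between the genotypes. It had 70.9 and 1.29 in R397W Foxp3 and 126 and 115 in WT Foxp3, and the IgG order was reversed, with 167 and 189 in R397W and 100.5 and 0 in WT. Both R397W Foxp3 values lay below both WT Foxp3 values, and both R397W IgG values lay above both WT IgG values. The log2 fold change was −3.24 (SE 1.81, limma, adjusted p = 1) between the Foxp3 libraries. It was −0.76 without R397W Foxp3 replicate 2, where 1.29 stood for 2 reads, and −5.73 without R397W Foxp3 replicate 1. Foxp3 minus IgG differed between genotypes by −7.39 on the log2 scale (SE 2.80), with a limma unadjusted p of 0.00817 and an adjusted p of 1.00. The unadjusted p was 0.118 in edgeR and 0.267 in DESeq2. WT Foxp3 lay above and R397W Foxp3 below the same-numbered IgG in both pairs. This was so at 1 of the 21 sites (4.76%) and at 4.31% of all sites, which are like shares.

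Site 2 of Smad7, at the gene end (75366932 to 75367332), had 97.1 and 0 in R397W Foxp3 and 97.0 and 129.9 in WT Foxp3. The libraries numbered 1 thus hardly differed between genotypes, and the difference rested on R397W Foxp3 replicate 2. Its IgG values were 38.5 and 118 in R397W and 78.6 and 65.7 in WT. The log2 fold change was −3.52 (SE 2.26, limma, adjusted p = 1) and −0.21 without that library, against −6.82 without R397W Foxp3 replicate 1. At the cTreg-specific site 6 (75392403 to 75392803), also named after its values were seen, the genotypes had similar values within each replicate number, with 23.6 and 144 in R397W Foxp3 and 37.9 and 136 in WT Foxp3. IgG there was 99.4 and 0 in R397W and 83.2 and 0 in WT, so IgG exceeded Foxp3 in both libraries numbered 1 and had no reads in both numbered 2.

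Ski encodes a co-repressor of SMAD complexes, and its 3 common sites all lay inside the gene on chromosome 4. Its highest site, site 2 (155178298 to 155178698), had 131 and 3.22 in R397W Foxp3 and 277 and 122 in WT Foxp3. Its IgG values were 118 and 82.7 in R397W and 236 and 1.99 in WT, so among the libraries numbered 2 the genotypes had opposite orders with the Foxp3 antibody and with IgG. R397W replicate 1 lay above WT replicate 2, so the Foxp3 groups overlapped. The log2 fold change was −2.96 (SE 1.65, limma, adjusted p = 1), with −0.48 without R397W Foxp3 replicate 2 and −5.45 without R397W Foxp3 replicate 1.

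Site 1 of Ski (155168691 to 155169091), named after its values were seen, stood above IgG in every same-numbered pair. It had 163 and 56.1 in R397W Foxp3 and 93.4 and 31.7 in WT Foxp3, against 31.7 and 10.8 in R397W IgG and 22.5 and 0 in WT IgG. Foxp3 over IgG was 5.14-fold and 5.18-fold in R397W and 4.16-fold in WT replicate 1, while WT IgG replicate 2 had no reads at this site and WT Foxp3 replicate 2 had 68. It was the sole site of the 21 at which both R397W Foxp3 values exceeded both R397W IgG values (4.76%, against 10.4% of all sites). The corresponding count in WT was 5 of 21 (23.8%, against 19.5% of all sites). In neither genotype did the difference pass, with log2 differences of 2.30 in R397W (SE 2.46, limma, adjusted p = 1) and 3.52 in WT (SE 2.46, limma, adjusted p = 0.991). The WT value was 1.24 without WT IgG replicate 2 and 5.80 without WT IgG replicate 1.

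Skil encodes SnoN, a co-repressor related to SKI. Its site 2 (chromosome 3, 31094809 to 31095209) covers the gene end with the lower coordinate and was the strongest of the 21, at the 99.4th percentile of common sites. Here IgG exceeded Foxp3 in all 4 same-numbered pairs. Values were 60.4 and 307 in R397W Foxp3 and 186 and 219 in WT Foxp3, against 287 and 556 in R397W IgG and 284 and 356 in WT IgG. Foxp3 over IgG was 0.210 and 0.551 in R397W and 0.653 and 0.616 in WT. Such a pattern in all 4 pairs was seen at 1.81% of all sites. The log2 difference was −1.54 in R397W (SE 0.52), with a limma unadjusted p of 0.00295 and an adjusted p of 1, and −0.65 in WT (SE 0.52, limma, adjusted p = 0.991). That SE is typical of sites of like mean signal and does not measure the spread of this site's own replicates. The unadjusted p in R397W was 0.0375 in edgeR and 0.433 in DESeq2. The R397W log2 difference was −0.38 without R397W Foxp3 replicate 1 and −2.71 without R397W Foxp3 replicate 2. Between genotypes the Foxp3 values overlapped, with a log2 fold change of −0.56 (SE 0.83, limma, adjusted p = 1) that turned to 0.60 without R397W Foxp3 replicate 1.

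The other Skil site (chromosome 3, 31093637 to 31094037), named after its values were seen, lay 1221 bp from the same gene end. It had 312 and 69.6 in R397W Foxp3 and 187 and 98.2 in WT Foxp3, against 109 and 68.1 in R397W IgG and 85.9 and 132 in WT IgG. The neighbouring sites therefore differed in which antibody gave more signal: at this one Foxp3 was higher in 3 of the 4 pairs, by 2.88-fold and 1.02-fold in R397W and by 2.17-fold in WT replicate 1, and was lower in WT replicate 2, at 0.745.

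**Figure D2:**
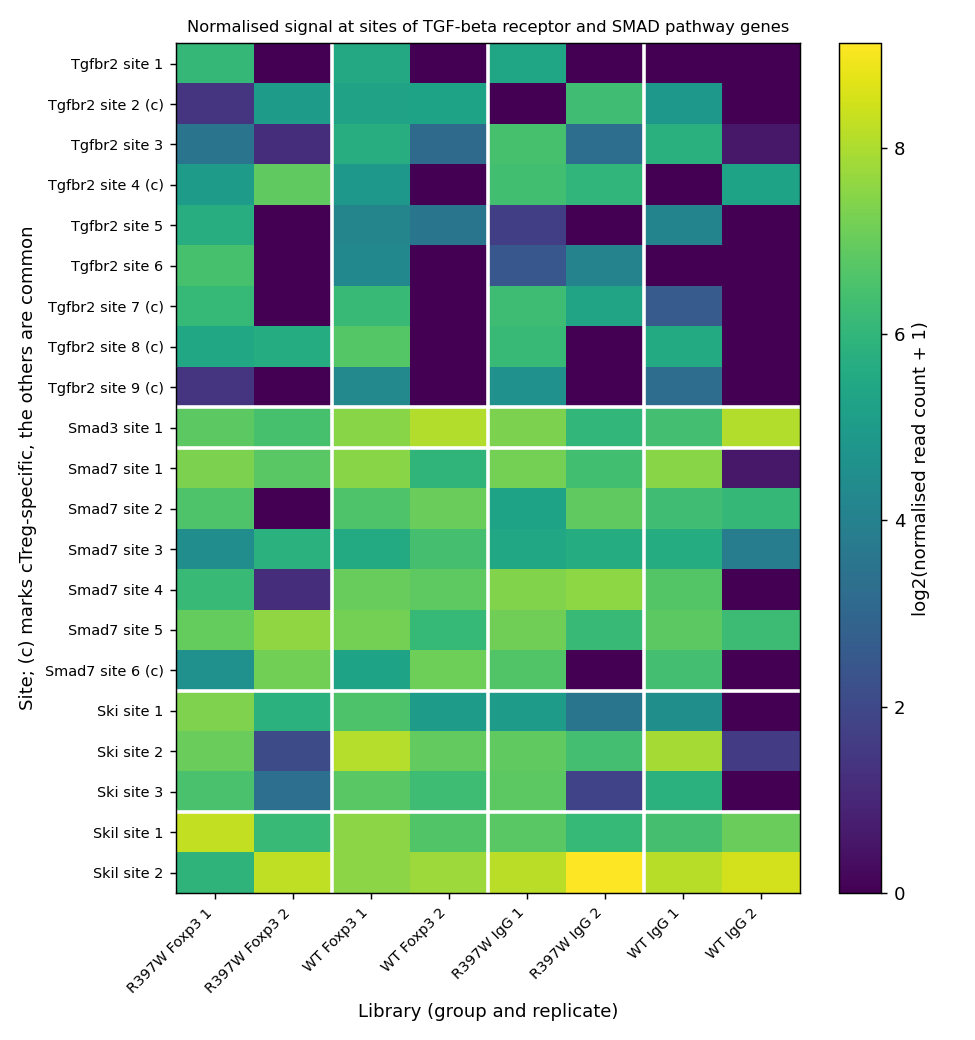
Normalised signal, log2(normalised read count + 1), at each of the 21 sites (rows) in the 8 libraries (columns, by group and replicate number). The darkest cells have no reads and gather in the libraries numbered 2 at Tgfbr2. Skil site 2 is brightest in the IgG libraries.

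The comparison of R397W with WT in the Foxp3 libraries asks whether signal at these genes differs between genotypes relative to the other listed sites. R397W is a missense change in the forkhead domain of Foxp3. A loss or gain of occupancy shared by most sites is removed by the scaling and cannot be seen here. No site passed: limma called 0 of the 21 sites and 0% of all 5521 sites, edgeR's quasi-likelihood test and DESeq2 on recovered reads also called 0 sites, and at an unadjusted p under 0.05 limma had 0 of the 21 sites and 0.326% of all sites. The fitted value was lower in R397W at 13 of the 21 sites (61.9%) and at 60.4% of all sites. The median log2 fold change was −0.56 over the 21 sites, with a range of −3.52 to 3.54, and −0.39 over all sites, while edgeR gave −0.13 and −0.29. Both R397W values lay below both WT values at 3 sites (14.3%, against 12.6% of all sites), namely Tgfbr2 site 2, Smad3 site 1 and Smad7 site 4. They lay above at 1 site (4.76%, against 6.43%), Tgfbr2 site 4. These shares are close to those of all sites. The median of the 21 sites depended on which library was left out, at −0.045 without R397W Foxp3 replicate 2 and −1.32 without R397W Foxp3 replicate 1, where all sites stood at 0.43 and −1.79. The spread between replicates was wide, with a common dispersion of 3.31 in edgeR, and on simulated data of a like spread limma called none of the large changes put in. The absence of calls therefore does not show equal occupancy. The simulation gave every site the same spread, while real sites were uneven, with an SE of 0.58 at Smad3 site 1 and 4.10 at Tgfbr2 site 7. It thus does not show which changes could be called at a given site.

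Foxp3 was compared with IgG within each genotype to ask how far these sites stood above background, relative to the other listed sites. The scaling took Foxp3 and IgG libraries together, so an excess over IgG shared by most well-covered sites is removed. Medians near 0 and the lack of calls therefore do not show absence of signal over background. In R397W the fitted difference was positive at 10 of the 21 sites (51.3% of all sites), with a median of −0.034 on the log2 scale against 0.052 over all sites. That median was 0.60 without R397W IgG replicate 1 and −0.67 without R397W IgG replicate 2, with all sites at 1.32 and −0.71. In WT the difference was positive at 19 of 21 (74.3% of all sites), with a median of 1.79 against 1.27. By limma 0 of the 21 sites passed in either genotype, against 0% of all sites in R397W and 0.0725% in WT. At an unadjusted p under 0.05 there were 1 of 21 in R397W (1.47% of all sites), Skil site 2, where IgG was higher, and 0 of 21 in WT (2.57% of all sites). Neither edgeR nor DESeq2 called any of the 5521 sites in either genotype. The WT median of 1.79 fell to 0.35 without WT IgG replicate 2, the library with no reads at 11 of the 21 sites, and the median over all sites then stood at 0.21. The WT median of the 21 sites was 3.10 without WT IgG replicate 1, with all sites at 2.18.

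Counted by pairs of the same replicate number, Foxp3 exceeded IgG at 9 and 10 of the 21 sites in R397W and at 17 and 11 in WT. Over all sites the shares were 48.9% and 31.3% in R397W and 72.7% and 41.9% in WT. Both R397W pairs showed it at 3 sites (14.3%, against 16% of all sites), namely Smad7 site 1, Ski site 1 and Skil site 1. In WT 8 sites did so in both pairs (38.1%, against 31% of all sites), including all 3 Ski sites and 3 of the 6 Smad7 sites. Smad7 site 1 and Ski site 1 were above IgG in all 4 pairs (9.52%, against 6.29% of all sites). At Smad7 site 1 (chromosome 18, 75353535 to 75353935) the excess was slight in 3 of these pairs. It had 158 and 109 in R397W Foxp3 and 181 and 62.4 in WT Foxp3, against 149 and 81.5 in R397W IgG and 178 and 0.498 in WT IgG, the last being 1 read.

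**Figure D3:**
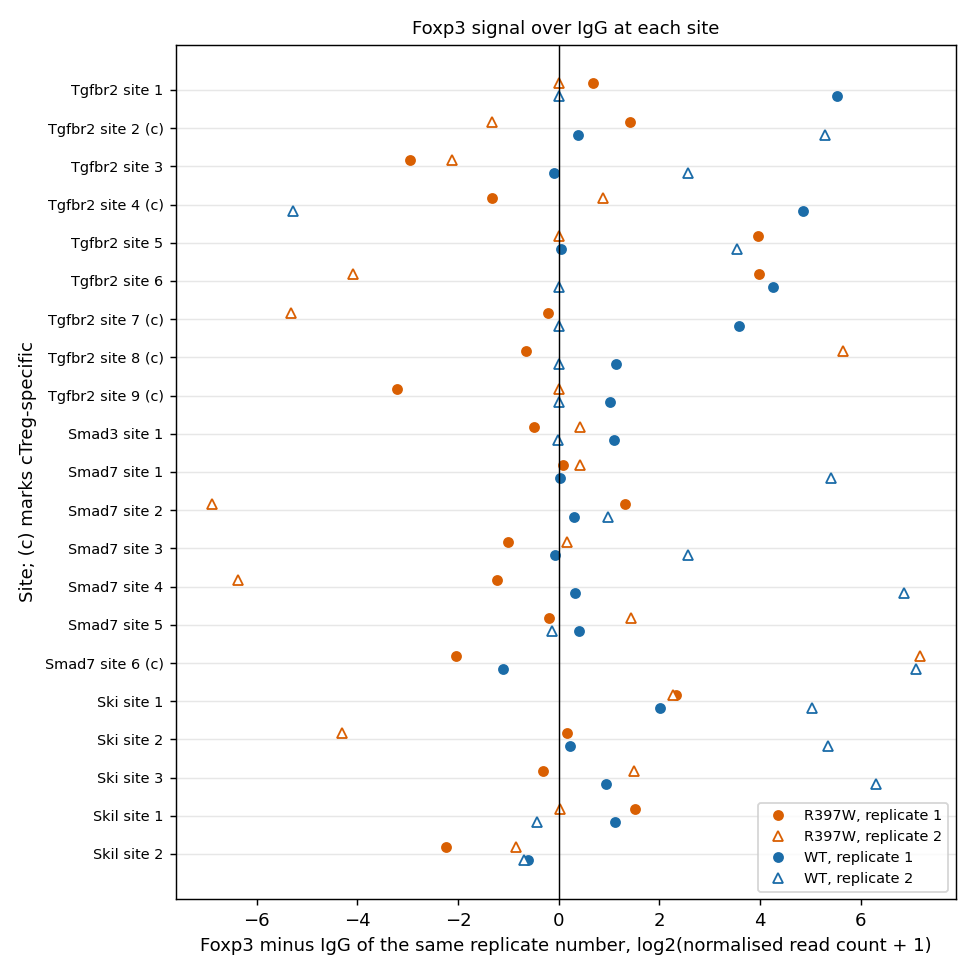
Foxp3 minus IgG of the same replicate number at each of the 21 sites, on log2(normalised read count + 1). Colours are genotypes and symbols replicates. Ski site 1 lies to the right of 0 and Skil site 2 to the left in all 4 pairs, while at most other sites the pairs of a genotype fall on both sides of 0 or touch it.

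The difference between genotypes in Foxp3 minus IgG had a median of −2.12 over the 21 sites and −1.02 over all sites, and was negative at 17 of 21 (65.7% of all sites). It lay between −3.50 without WT IgG replicate 1 and −0.54 without R397W IgG replicate 1, with all sites at −1.99 and 0, and edgeR gave −1.33 against −0.99. No site passed in limma (0 of 21, against 0% of all sites), edgeR or DESeq2. At an unadjusted p under 0.05 there were 2 of 21 (9.52%, against 1.65% of all sites), Smad7 site 4 and Ski site 2, with log2 values of −7.39 (SE 2.80) and −4.87 (SE 2.25). Without WT IgG replicate 2 these were −4.06 and −1.72, and in edgeR −3.59 and −1.33. For Ski site 2 the unadjusted p was 0.501 in edgeR and 0.649 in DESeq2. The IgG libraries took part in the genotype difference in Foxp3 minus IgG. R397W minus WT in IgG had a median of 0.81 over the 21 sites and 0.33 over all sites and was positive at 17 of 21 (56.7% of all sites). In these libraries both R397W IgG values lay above both WT IgG values at 4 sites (19%, against 11.3% of all sites), namely Tgfbr2 sites 4, 6 and 7 and Smad7 site 4. They lay below at 0 sites (5.51% of all sites). The IgG contrast had 0 of 21 sites passing in limma, against 0.0362% of all sites, and 0 sites in edgeR and DESeq2. At an unadjusted p under 0.05 limma had 2 of 21 (2.25% of all sites), Smad7 sites 1 and 4. For site 1 the unadjusted p was 0.798 in edgeR and 0.854 in DESeq2, and for site 4 it was 0.259 and 0.422. At site 1 the limma log2 value of 2.76 was 0.37 in edgeR, and WT IgG replicate 2 had 1 read there. Without WT IgG replicate 2 the IgG median turned to −0.22 over the 21 sites and to −0.11 over all sites. The genotype difference in Foxp3 minus IgG then had a median of −0.76, with all sites at −0.13. Without WT IgG replicate 1 the IgG median over the 21 sites was 3.07, with all sites at 1.66.

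Gene totals were compared as reads at all sites of a gene per 100000 reads recovered at all listed sites of that library, in which the deposited factors cancel. The 21 sites together took 622 and 665 in R397W Foxp3 and 646 and 790.5 in WT Foxp3, against 737 and 909 in R397W IgG and 757 and 659 in WT IgG. The Foxp3 values of the genotypes overlapped, at 643 ± 30.2 in R397W and 718 ± 102 in WT (SD, n = 2 each). Smad7 had 173 and 272 in R397W Foxp3 and 192 and 318 in WT Foxp3, which overlapped, with 255 and 309 in R397W IgG and 296 and 108 in WT IgG. Smad3 had 38.6 and 48.0 in R397W Foxp3 and 53.3 and 145 in WT Foxp3, so both R397W shares lay below both WT ones. This was so at 1 of the 5 genes and at 12.5% of the 2760 genes with a site, and the opposite order was seen at 0 of the 5 and at 9.46% of all. Smad3 has a single site, so its share repeats the values of that site. Its IgG shares were 62.9 and 39.4 in R397W and 42.3 and 188 in WT.

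Tgfbr2 reads made up 151 and 99.6 per 100000 in R397W Foxp3 and 149 and 28.9 in WT Foxp3, against 159 and 123 in R397W IgG and 70.9 and 20.8 in WT IgG. In the Foxp3 libraries these overlapped, while both R397W IgG shares lay above both WT IgG shares, as at 12.5% of all genes with a site. Ski had 131 and 37.7 in R397W Foxp3 and 141 and 126 in WT Foxp3, and R397W replicate 1 lay between both WT values. For Skil the Foxp3 shares were 128 and 208 in R397W and 109.7 and 173 in WT, and the IgG shares were 157 and 379 in R397W and 188 and 340.4 in WT.

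**Figure D4:**
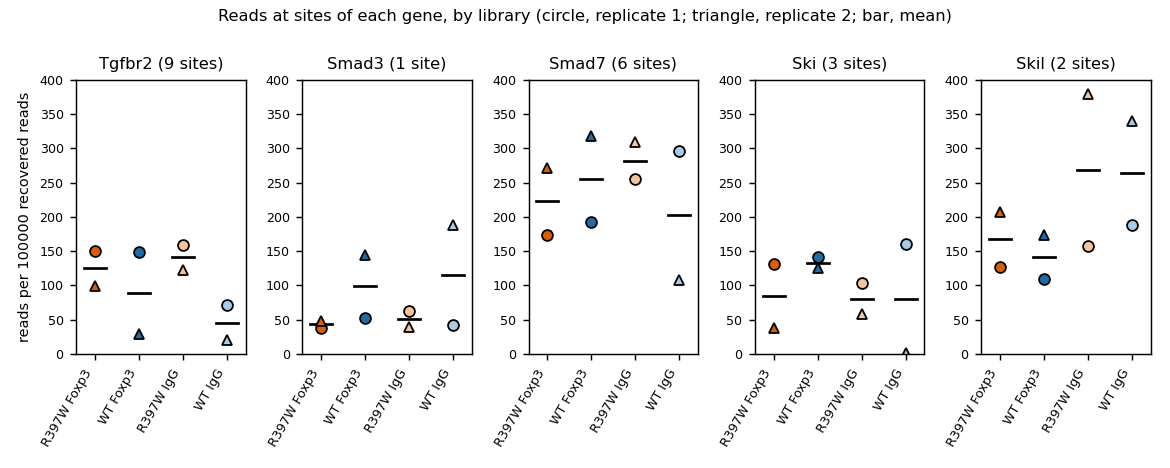
Reads at the sites of each gene per 100000 reads recovered at all listed sites, in each library (circle, replicate 1; triangle, replicate 2; bar, group mean). Skil is the gene at which both groups of IgG libraries have higher means than both groups of Foxp3 libraries.

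All 21 sites have the same width, so levels per site can be ordered. An even spread of reads would give each listed site 18.1 per 100000. In R397W Foxp3 the mean per site was 83.8 ± 28.3 for Skil, 43.3 ± 6.62 for Smad3, 37.1 ± 11.6 for Smad7, 28.1 ± 22.0 for Ski and 13.9 ± 4.04 for Tgfbr2 (SD, n = 2 libraries). In WT Foxp3 the order was Smad3 with 99.2 ± 64.9, Skil with 70.7 ± 22.4, Ski with 44.5 ± 3.62, Smad7 with 42.5 ± 14.8 and Tgfbr2 with 9.91 ± 9.47 (SD, n = 2 libraries). Among neighbours in these orders, the library values did not overlap between Skil and Smad3 in R397W, nor between Skil and Ski or between Smad7 and Tgfbr2 in WT. All other neighbours overlapped. Tgfbr2, with the most sites, was lowest in both genotypes. It was also lowest in IgG, at 15.7 ± 2.83 in R397W and 5.09 ± 3.93 in WT. Skil was highest in IgG, at 134 ± 78.5 in R397W and 132 ± 53.8 in WT, above its Foxp3 means.

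The member with the most recovered reads was Smad7, with 5024 over the 8 libraries. Genes with a like profile were sought among 271 genes outside the pathway's 9 with at least 3 sites and reads in every library, by the root mean square difference of the centred log2 share over the 8 libraries. The nearest were Anxa6 (0.188), Tiam1 (0.243) and Tcf7 (0.267), against a median of 0.934 over the 271 genes. Profiles in these libraries also carry depth and coverage that the genes share.

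Of 64 other genes of the pathway, 20 had a site, 33 sites in all, of which 21 were common, 6 cTreg-specific and 6 eTreg-specific. Among 14 genes for ligands and their activation, Itgav, an integrin subunit that takes part in freeing latent TGF-beta, had 5 sites, 4 of them eTreg-specific. In the same group Lrrc32, which encodes GARP, the docking receptor for latent TGF-beta on Treg cells, had 1 common site. Among 11 receptor genes Tgfbr3, encoding the co-receptor betaglycan, had 2 sites and Acvr1c, an activin-type receptor gene, had 1. Of the 4 other SMAD genes only Smad5 had a site. Regulators of receptors and SMADs had sites at 7 of 16 genes, with 2 at Trim33, a ubiquitin ligase gene, and 1 each at the rest, among them Usp4. SMAD partners had 11 sites at 4 of 6 genes, led by Runx1 with 7 (5 common and 2 cTreg-specific) and Ep300, a histone acetyltransferase gene, with 2. The kinases of the SMAD-independent branch had 2 sites at 2 of 4 genes, Map3k7 and Tab1, and targets had 2 sites at 2 of 9 genes, Cdkn1a and Id3. Between R397W and WT Foxp3, limma, edgeR and DESeq2 called 0 of the 33 sites (0% of all sites). The fitted value was lower in R397W at 23 of them (60.4% of all sites), with a median log2 fold change of −0.59. At an unadjusted p under 0.05 limma had 1 of the 33 (0.326% of all sites), the common one at Trim33, with 105 and 259.6 in R397W Foxp3 and 40.0 and 8.38 in WT Foxp3, against 79.2 and 0.636 in R397W IgG and 55.5 and 13.9 in WT IgG. Its log2 fold change was 3.08 (SE 1.15, limma, adjusted p = 1), and 2.02 without WT Foxp3 replicate 2. None of the 33 sites passed in the comparisons that involve IgG, against 0% to 0.0725% of all sites in limma. There edgeR and DESeq2 called 0. At an unadjusted p under 0.05 limma had 0 of the 33 in each of these comparisons. Over all sites that share was 2.57% for Foxp3 minus IgG in WT and 1.47% in R397W. It was 1.65% for the genotype difference in Foxp3 minus IgG and 2.25% for R397W minus WT in IgG. With 33 sites, a count of 0 cannot be told from such shares.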

How the data were processed

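Per the submitters' processing notes, mm10 and dm6 were the builds and Bowtie2 2.5.2 and DiffBind 3.12.0 the tools, with no roles given. Site calling, the classes and duplicate removal are not given in the sources used here. Deposited values are a signal per library and site, which the authors' file names call spike-in normalised. In each library and file every nonzero value was a whole multiple of the lowest (100% within 0.01), so reads were recovered. The factors equalled median-of-ratios factors over all 8 libraries at each file's own sites (largest deviation 6.62e-08 percent), so the 3 files were scaled separately. A gain or loss shared by most sites is removed, also between Foxp3 and IgG libraries. Sites were tested with limma 3.58.1 (R 4.3.3, trended, two-sided) on log2(signal + 1). P-values were adjusted by Benjamini-Hochberg across the 5521 sites, with 0.05 as the threshold. The 4 Foxp3 libraries entered the R397W minus WT fit, and all 8 entered the comparisons that involve IgG. In the latter fits limma's p-values followed a normal distribution, so SE and p rest on the spread typical of sites of like mean signal. edgeR 4.0.16 and DESeq2 1.42.0 were run on recovered reads. Simulated data had the same spread between replicates at every site. Limma recovered most of the large changes put in when that spread was small. It recovered none at a spread near the common dispersion of the real Foxp3 libraries. The RefSeq gene table (GRCm38.p6) has no strand; starts and strands came from the promoter table, which matched 5 of the 9 genes. The members, lists and tests were chosen with earlier results of these data known. Named sites were the highest of each gene, those within 1 kb of a gene end, and non-overlapping ones with an absolute log2 fold change above 2; other named sites are marked or belong to a count of 5 or fewer. The alternatives tried were a pseudocount of 0.5 or 5, removal of the weakest 25% of sites, equal read totals, a replicate block, no trend, genes within 10 kb, and leaving out single libraries.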

Additional observations from a re-analysis of the deposited data

Results flagged for a closer look

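At Smad7 site 4 (chromosome 18, 75374005 to 75374405) Foxp3 minus IgG went in opposite directions in the 2 genotypes, in every pair of the same replicate number. On log2(normalised read count + 1) it was −1.23 and −6.38 in R397W and 0.33 and 6.86 in WT (replicates 1 and 2), a difference of −7.39 that did not pass in limma (adjusted p = 1.00). This order was seen at 1 of the 21 member sites (4.76%) and at 4.31% of all sites. The values of largest size rest on 2 reads in R397W Foxp3 replicate 2 and on no reads in WT IgG replicate 2, and the part of coverage in this result was not tested.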

How the results depend on the processing

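No member site was called in any of the 77 combinations of comparison and alternative setting. Over all sites, the R397W minus WT count of 0 in Foxp3 libraries stayed at 0 except without WT Foxp3 replicate 2, which gave 643 (range over left-out libraries 0 to 643). For Foxp3 minus IgG in WT, 4 sites were called, counted in either direction. The count was 5 with a pseudocount of 0.5 or without the lowest 25% of sites. It was 0 with a pseudocount of 5, equal totals, the replicate block, no trend, edgeR or DESeq2, and 0 to 189 with 1 library left out. The R397W minus WT count of 2 in IgG was 3 with a pseudocount of 0.5 or without the lowest 25% of sites, and 0 with a pseudocount of 5, equal totals, the replicate block, no trend, edgeR or DESeq2. Leaving out a library gave 0 to 15. The genotype difference in Foxp3 minus IgG was 0 and became 0 to 182 with a library left out. Cause was not tested.

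The median log2 fold change over the member sites, −0.56, was −0.44 at equal totals, which moved the median over all sites from −0.39 to −0.31, and −1.32 to −0.045 with a library left out. A pseudocount of 5 gave −0.25 (−0.28 over all sites) and edgeR −0.13 (−0.29 over all sites), so the order of the member sites against all sites turned. At Skil site 2 the log2 fold change was −0.56 and ranged from −1.72 to 0.60 with a library left out, the positive value being that without R397W Foxp3 replicate 1. Directions also turned at 4 sites named after their values were seen. Tgfbr2 site 8 (2.20) ranged from −1.17 to 5.56 with a library left out and was −0.18 in edgeR and DESeq2. Smad7 site 1 (0.30) ranged from −0.46 to 1.06, Smad7 site 6 (−0.29) from −1.57 to 0.99 and Skil site 1 (0.12) from −0.95 to 1.20. The other sites run in this check kept their direction between R397W and WT Foxp3. Tgfbr2 sites 6 and 7, named in a count, were not run. Medians in the IgG comparisons, their site values, and both count tools for medians and sites were added after seeing the data. A 10 kb limit for genes left 6 of 9 Tgfbr2 and 5 of 6 Smad7 sites and changed no other gene's count. Replicate numbers are not stated to mark shared mice or days, and deviations of same-numbered libraries correlated at 0.167 across sites between R397W and WT Foxp3 and at 0.0873 in IgG. Between Foxp3 and IgG, the pairs used above, the correlation was 0.0375 in WT and 0.135 in R397W. With the replicate block, 0 sites were called in all 5 comparisons. Few reads per site and uneven coverage limit what these libraries can show.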
